A study of Mus musculus with 13 samples.

Results

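The genes described here, Hfm1, Msh4, Msh5, Mlh3, Rnf212, Tex11, Cntd1 and Ccnb1ip1, encode proteins that act on crossover sites in meiotic prophase. These 8 were named by symbol out of 55335 genes in the count table. The rule that picked them used no measured value, but earlier results of these data were known when they were chosen. The question asked of them was whether deletion of the glucocorticoid receptor GR, the steroid-activated transcription factor encoded by Nr3c1, changed their transcript levels in fetal oocytes. Ovaries of single female mouse embryos at E17.5 were dissociated and their germ cells sorted by Pou5f1-GFP, a transgene that all embryos carried, and 1 library of 3' Tag-Seq, which sequences mainly the 3' end of each mRNA, was made per embryo. The constitutive cross gave WT embryos (n = 3) and KO embryos (n = 3), which lacked exon 3 of Nr3c1 in every cell and came from heterozygous parents. The conditional cross gave Cre-negative floxed controls (flox, n = 3) and embryos with Pou5f1-CreERT2 (cKO, n = 4), in which Cre is driven in germ cells and activated by tamoxifen. Every dam of the conditional cross, those of flox embryos included, was given tamoxifen at 125 μg / g at E10.5. None is described for the constitutive cross, so the cross and tamoxifen cannot be told apart.

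Oocytes of the fetal ovary pass through meiotic prophase, in which programmed DNA breaks are repaired on the homologous chromosome and a few of these repair events become crossovers. Most crossovers follow the class I pathway. HFM1 opens and extends the joined DNA strands, MSH4 and MSH5 form a clamp (MutSγ) that holds the intermediates, TEX11 tethers these proteins to the chromosome axis, RNF212 and CCNB1IP1 (HEI10) select which sites keep the clamp, CNTD1 is needed for that selection to finish, and MLH3, of the MutL family, takes part in cutting the selected intermediates into crossovers.

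The libraries held between 2048706 and 3674989 counted reads (median 2483236), and a count of 1 was worth 0.272 to 0.486 CPM, counts scaled to the library total and its TMM factor. The sorted cells carried oocyte transcripts in every library, with counts for 9 of 10 oocyte markers and a summed level of 11780 to 19100 CPM. The axis gene Sycp3 was at 0 counts in all 13 libraries. The paper stained SYCP3 protein in germ cell spreads of fetal ovaries and lists qRT-PCR primers for Sycp3. This 0 therefore does not show that the transcript was absent. Its cause was not tested. The 15 markers of ovarian somatic cells summed to 160 to 188 CPM in WT, 127 to 156 in KO, 160 to 322 in flox and 206 to 383 in cKO libraries. All KO libraries thus lay below all WT libraries. The part of somatic cells in the comparisons of groups and of crosses was not tested. Markers of endothelial and blood cells, 9 of 11 with counts, summed to 15.4 to 273 CPM in WT, KO and cKO libraries and to 331 to 1359 CPM in flox libraries. Their part in the results with flox libraries was not tested. The sum came mainly from globins and Pecam1 (median counts of 227 for Hbb-bs, 124 for Hba-a1, 98 for Hbb-bt and 101 for Pecam1). Ptprc and C1qa were at 0 in 12 libraries and Csf1r in 11, and Cdh5 had a median of 2 counts. Counts of Nr3c1 averaged 44.6 ± 14.8 CPM in WT, 44.6 ± 25.3 in KO, 65.8 ± 33.3 in flox and 52.6 ± 18.0 in cKO embryos (SD, n = 3, 3, 3 and 4), with overlapping groups. These are counts over the whole gene from 3' tags, so they do not show whether exon 3 was present and do not check the genotype labels. The paper reported loss of GR protein in KO ovaries by staining at E17.5, and loss of Nr3c1 by qRT-PCR of whole ovaries at an earlier stage. The paper's single-cell data, made with a 3' kit at an earlier stage, showed depleted total Nr3c1 in every ovarian cell type of KO embryos. The WT and KO means here were alike, and the reason for this difference was not tested. In bulk samples, fewer cells of a type and less RNA per cell cannot be told apart.

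The promoters of the crossover genes were searched for glucocorticoid receptor sites because GR is the deleted factor. RefSeq windows of 300 bases around the start (GRCm38.p6) were at hand for 7 of the 8 genes and for none of Tex11. The full response element was spelled AGAACA followed after 3 bases by TGTTCT, and its half-site TGTTCT was also searched on its own, on both strands, so that each full element also counts as a half-site. No full element was found in the 7 genes, and 3 of 32851 windows in the table held it. A match this rare was unlikely in any 7 genes, so its absence does not tell whether GR has sites at them. The half-site was found in Hfm1 and in Mlh3, which is 2 of 7 genes, beside 19.0% of all windows. The windows of these 2 genes are printed, 5′ to 3′ along the gene, with capitals marking the half-site (TGTTCT or, on the other strand, AGAACA) and, in Hfm1 only, the matches to 2 other motifs searched.
Hfm1 promoter (chr5:106925841-106926140, minus strand): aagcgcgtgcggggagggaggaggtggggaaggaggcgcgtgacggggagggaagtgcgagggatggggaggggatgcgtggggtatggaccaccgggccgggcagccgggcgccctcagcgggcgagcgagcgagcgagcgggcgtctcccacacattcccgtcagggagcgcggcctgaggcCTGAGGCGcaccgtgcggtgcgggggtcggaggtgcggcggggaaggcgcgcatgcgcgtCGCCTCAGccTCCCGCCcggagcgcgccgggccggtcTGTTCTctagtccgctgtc
Mlh3 promoter (chr12:85270542-85270841, minus strand): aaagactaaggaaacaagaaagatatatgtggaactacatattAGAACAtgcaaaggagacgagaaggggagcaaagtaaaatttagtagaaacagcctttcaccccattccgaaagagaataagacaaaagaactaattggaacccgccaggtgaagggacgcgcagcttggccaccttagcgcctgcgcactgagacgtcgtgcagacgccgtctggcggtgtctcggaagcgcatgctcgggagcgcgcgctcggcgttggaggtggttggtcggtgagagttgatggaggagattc
The other capitals in Hfm1 are CNCCTCAG, the core bound by STRA8 and MEIOSIN at meiotic entry, and GGCGGGA, an E2F-type site. CNCCTCAG was found in Hfm1 and Msh5, 2 of 7 genes, beside 7.94% of all windows. GGCGGGA was found in Hfm1, Msh5, Rnf212 and Ccnb1ip1, 4 of 7 genes, beside 11.3% of all windows. The E-box CACGTG was found in Cntd1 and Rnf212, beside 7.15% of all windows. Msh4 held none of these motifs in its window. On the minus strand, the windows of Msh4 (to 153905141) and Ccnb1ip1 (to 50795978) lie inside GENCODE intervals that reach to 153906138 and 50807732. That of Hfm1 also lies inside its interval. Motifs at other starts of these genes were not searched. All motifs were searched on both strands, and no printed matches overlap. A gene was counted if any of its windows matched, so the counts of genes are unlike the shares of windows. The windows used as background were not matched for GC content. All of these are matches of letters and not measured binding.

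None of the 8 crossover genes was called as changed in KO or in cKO embryos. All 8 passed the filter on low counts. In edgeR's quasi-likelihood test, 0 of 8 had an adjusted p of 0.05 or less in KO against WT, where 0 of 13086 genes tested (0%) did, and 0 of 8 in cKO against flox, where 0 of 13086 (0%) did. At an unadjusted p under 0.05 the counts were 0 of 8 in both comparisons, beside 761 of all genes tested (5.82%) in KO and 418 (3.19%) in cKO embryos. DESeq2, fitted to every gene with at least 1 count, called 0 of 8 in each comparison. It called 12 of 15148 genes tested in KO and 5 of 21551 in cKO embryos. For 0 of 8 genes did the levels of the knockout and its controls stand apart without overlap, where 9.46% of all genes tested stood apart in KO against WT and 4.97% in cKO against flox. The median log2 fold change over the 8 genes was 0.08 in KO embryos, between −0.54 and 0.44, beside −0.03 over all genes tested. In cKO embryos it was −0.29, between −1 and 0.49, beside −0.01. The 95% interval of the log2 fold change reached past a 2-fold change for all 8 genes in both comparisons, so changes of that size lay within the error of these libraries.

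**Figure D1:**
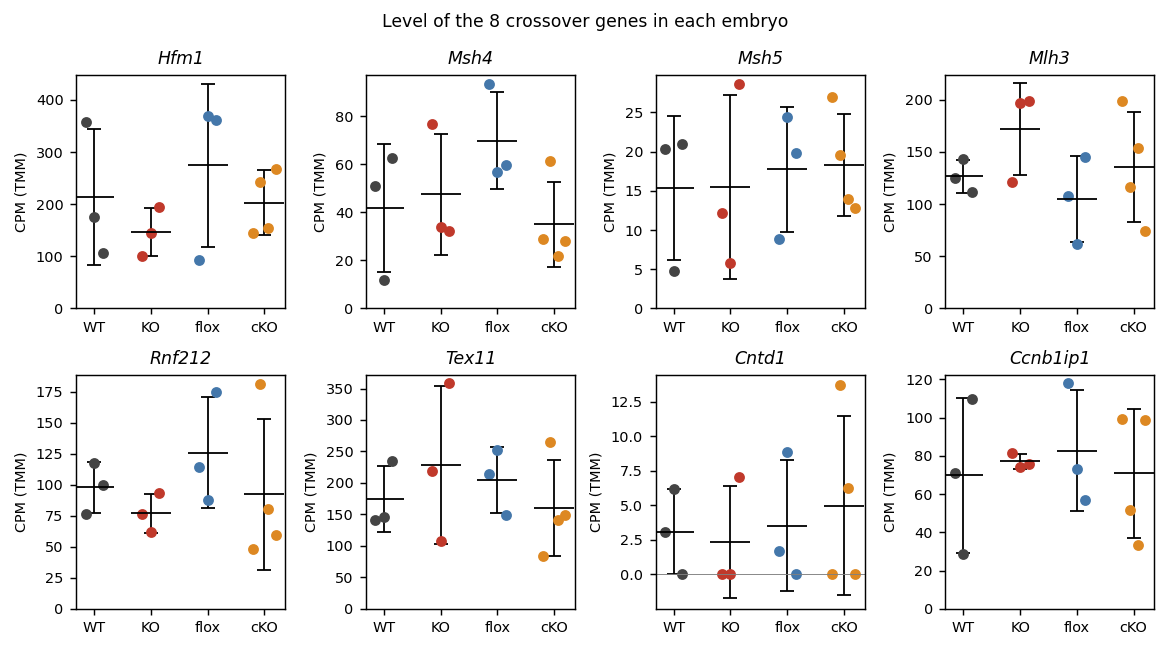
Levels of the 8 crossover genes in CPM (TMM scaled), 1 panel per gene with its own linear axis. Points are single embryos of WT, KO, flox and cKO, and bars give the mean ± SD of each group; in every panel the points of the knockout overlap those of its control group, and Cntd1 lies at 0 in 6 of 13 libraries.

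Of the MutSγ genes, Msh4 (chr3:153857149-153906138, mm10) was at 50.9, 11.9 and 62.8 CPM in WT and at 76.8, 34.0 and 32.1 CPM in KO embryos. In the conditional cross it was at 93.4, 56.9 and 59.7 CPM in flox and at 29.1, 61.3, 22 and 27.9 CPM in cKO embryos. The cKO libraries lay below all flox libraries except for cKO replicate 2, which stood among them, and the WT and KO libraries overlapped. The log2 fold change of Msh4 was −1 in cKO embryos (SE 0.55, 95% interval −2.14 to 0.15), the lowest of the 8 genes, with an adjusted p of 1 in edgeR and p = 0.114 in the exact two-sided permutation test of 4 against 3 libraries. In KO embryos it was 0.18 (SE 0.60). The difference between these effects, 1.18 (SE 0.82, unadjusted p = 0.161 and adjusted p = 1 in edgeR), did not pass the test.

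Msh5 (chr17:35028605-35046745), the partner of Msh4 in the clamp, was counted on 10 to 78 reads per library. Its level was 20.4, 4.78 and 20.9 CPM in WT and 12.2, 5.83 and 28.6 CPM in KO embryos. In flox embryos it was 8.88, 24.4 and 19.9 CPM and in cKO embryos 27.0, 19.5, 13.9 and 12.8 CPM. High and low libraries occurred in all 4 groups, and the log2 fold changes of 0.01 (SE 0.94) in KO and 0.05 (SE 0.88) in cKO embryos were close to 0 with intervals of −1.93 to 1.96 and −1.77 to 1.86.

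Since MSH4 and MSH5 act as a pair, the ratio of Msh4 to Msh5 counts was taken within each library, which needs no scaling between libraries. The ratio depends on how well each 3' end is captured and is not a ratio of molecules. On the log2 scale it was 1.32, 1.32 and 1.58 in WT and 2.66, 2.54 and 0.17 in KO embryos. In flox embryos the log2 ratio was 3.40, 1.22 and 1.58, and in cKO embryos 0.11, 1.65, 0.66 and 1.13. Flox replicate 1 gave the highest ratio and the cKO ratios reached lower than the flox ratios, with an overlap at 1 cKO library. The mean log2 ratio differed by −1.18 between cKO and flox (exact permutation p = 0.143, 0.572 after Benjamini-Hochberg adjustment over 4 ratio tests) and by −0.52 without flox replicate 1. Between KO and WT it differed by 0.38 (exact permutation p = 0.8).

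HFM1 is the meiotic helicase of the pathway and TEX11 an X-linked scaffold protein. Hfm1 (chr5:106840192-106926321) was at 358, 175 and 106 CPM in WT and 101, 144 and 194 CPM in KO embryos. It was at 93.8, 368 and 362 CPM in flox and 145, 243, 154 and 268 CPM in cKO embryos. Hfm1 thus spread 3.93-fold among the 3 flox embryos, with flox replicate 1 the lowest of all 13 libraries and flox replicate 2 the highest. Its log2 fold change was −0.54 (SE 0.45, 95% interval −1.47 to 0.39) in KO and −0.44 (SE 0.42, −1.30 to 0.42) in cKO embryos, and the former became 0.08 without WT replicate 1.

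Tex11 (chrX:100838648-101059667) was at 141, 146 and 234 CPM in WT and 219, 108 and 358 CPM in KO embryos. It was at 213, 252 and 148 CPM in flox and 83.8, 266, 141 and 149 CPM in cKO embryos. The KO embryos held both the highest library of all 13 and a library below every WT embryo. The log2 fold changes were 0.39 (SE 0.41) in KO and −0.36 (SE 0.38) in cKO embryos, and their difference of 0.75 (SE 0.56) had an adjusted p of 1 in edgeR.

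The MutL gene Mlh3 (chr12:85234520-85270599), whose product carries the endonuclease site that cuts crossover intermediates, was the steadiest of the 8 genes between embryos. Its biological coefficient of variation was 34.4%, beside a median of 70.0% over all genes tested. The median counts were 300 for Mlh3 and 56 over all genes tested, so these coefficients are not at like counts. Mlh3 was at 125, 143 and 112 CPM in WT and at 121, 197 and 199 CPM in KO embryos. In flox embryos it was at 108, 62.2 and 145 CPM and in cKO embryos at 198, 116, 154 and 74.5 CPM. KO replicates 2 and 3 lay above all WT libraries while KO replicate 1 lay among them. The log2 fold change was 0.44 in KO (SE 0.38, 95% interval −0.34 to 1.23, exact permutation p = 0.3) and 0.37 in cKO embryos (SE 0.36, −0.37 to 1.11, exact permutation p = 0.457).

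Of the site-selection genes, Rnf212 (chr5:108729290-108774982), a RING protein that stabilises the clamp at chosen sites, was at 76.5, 118 and 99.8 CPM in WT and 76.4, 61.7 and 93.2 CPM in KO embryos. It was at 115, 87.5 and 175 CPM in flox and 48.1, 181, 80.8 and 59.4 CPM in cKO embryos. In each cross the knockout held the lowest library, and in the conditional cross cKO replicate 2 was also the highest of all 13. The log2 fold change was −0.34 (SE 0.44, 95% interval −1.26 to 0.57, exact permutation p = 0.2) in KO and −0.45 (SE 0.41, −1.29 to 0.40, exact permutation p = 0.314) in cKO embryos. A gene on the opposite strand, 1700047L14Rik, covers 11.1% of its interval, none of it in the last 1000 bases.

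Ccnb1ip1 (chr14:50789248-50807732), a ubiquitin ligase that limits RNF212 and the clamp to few sites, was at 71.2, 28.7 and 110 CPM in WT and 81.7, 73.9 and 75.6 CPM in KO embryos. It was at 118, 73.3 and 56.7 CPM in flox and 99.4, 51.5, 33.4 and 98.7 CPM in cKO embryos. The KO libraries lay close together and inside the range of the WT libraries, and the log2 fold changes were 0.14 (SE 0.49) in KO and −0.22 (SE 0.46) in cKO embryos. The ratio of Rnf212 to Ccnb1ip1 counts ran from 0.911 to 4.10 in WT, 0.836 to 1.23 in KO, 0.971 to 3.09 in flox and 0.484 to 3.52 in cKO embryos. Its mean log2 differed by −0.69 between KO and WT and by −0.29 between cKO and flox, with exact permutation p = 0.6 and 0.857 (both 0.857 after adjustment).

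Cntd1 (chr11:101279012-101296317, plus strand), a cyclin-like protein gene, was close to the limit of detection. It had 7, 13 and 0 counts in WT, 0, 0 and 16 in KO, 4, 20 and 0 in flox and 0, 35, 17 and 0 in cKO embryos. Every group held at least 1 library at 0, where up to 3 counts remain possible for counting error alone, and no direction can be read. The genes that overlap its interval, Coa3 and Becn1, are on the opposite strand, and its last 1000 bases lie wholly within such overlap. Without the strand setting of the counting, reads of overlapping genes cannot be told apart. How reads within overlapping genes were counted is not given in the sources used here, so few counts do not show a low transcript level.

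**Figure D2:**
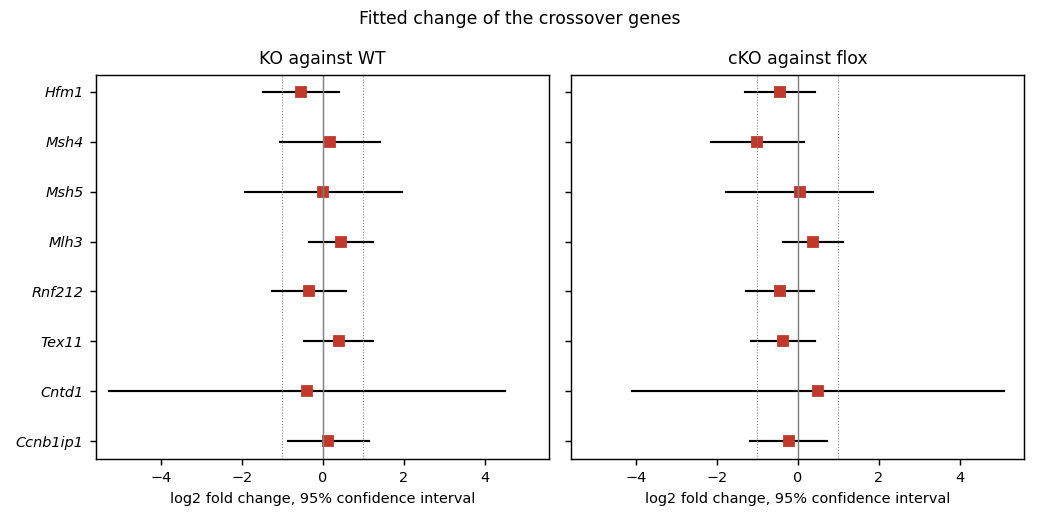
Log2 fold changes of the 8 crossover genes for KO against WT and cKO against flox, from edgeR's fit of all 13 libraries, with 95% confidence intervals as bars. Every interval includes 0, and the interval of Cntd1 is the widest.

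The direction of the point estimates was not shared by the group of genes as a whole. In KO embryos 5 of 8 estimates were above 0 and 3 below, and in cKO embryos 3 were above and 5 below. Hfm1 and Rnf212 lay below 0 and Mlh3 and Msh5 above 0 in both knockouts, none of them past the test. For the difference between the KO and cKO effects, 0 of 8 genes were called, as were 0 of all genes tested (0%), and 0 of 8 had an unadjusted p under 0.05 in edgeR, beside 574 of all genes (4.39%). DESeq2 called 10 of 12818 genes tested for this difference. The highest group mean was that of flox for Hfm1, Msh4, Rnf212 and Ccnb1ip1, of KO for Mlh3 and Tex11 and of cKO for Msh5 and Cntd1, and for each gene the groups next to each other in the order of means differed by less than the larger of their SDs. The summed level of the 8 genes was 633 to 846 CPM in WT, 624 to 988 in KO, 752 to 967 in flox and 604 to 952 in cKO embryos, with group means of 742 ± 107, 767 ± 194, 884 ± 116 and 719 ± 159 CPM (SD, n = 3, 3, 3 and 4).

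The biological coefficients of variation between embryos were 34.4% to 76.2% for the genes other than Cntd1, beside a median of 70.0% over all genes tested. The counting error at the median count was 4.82% to 15.6%. These genes had median counts of 41 to 431, beside 56 over all genes tested, so the coefficients are not at like counts. Among libraries, WT replicate 2 was the lowest of 13 for Msh4, Msh5 and Ccnb1ip1 and KO replicate 3 the highest for Msh5, Mlh3 and Tex11. Flox replicate 1, which had the highest sum of endothelial and blood markers, was the lowest for Hfm1 and the highest for Msh4 and Ccnb1ip1. No library was at the low or the high end for all 8 genes.

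**Figure D3:**
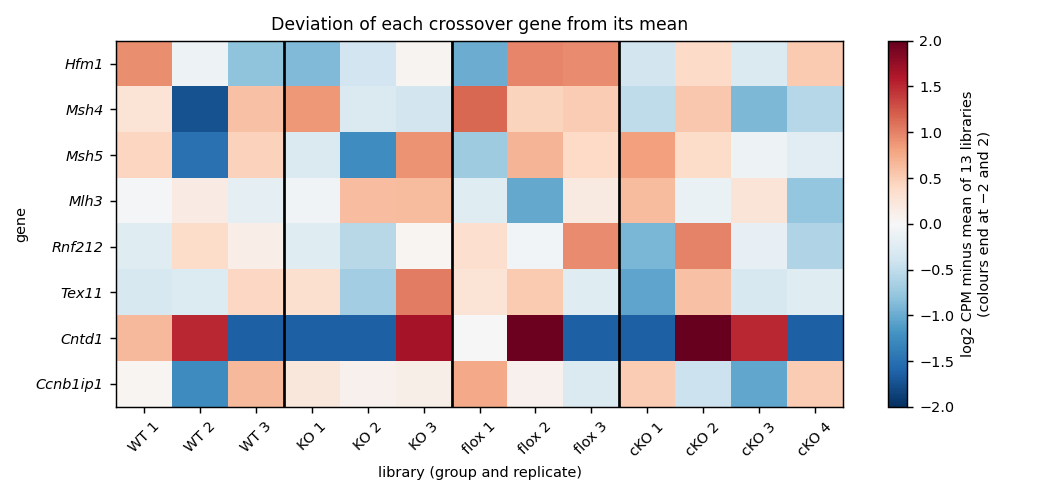
Deviation of each crossover gene (rows) in each embryo (columns) from that gene's mean over the 13 libraries, in log2 CPM with a prior count of 2. The low values of WT replicate 2 for Msh4, Msh5 and Ccnb1ip1 and the opposite signs of Hfm1 and Msh4 in flox replicate 1 can be seen, and no group has one colour across genes.

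**Figure D4:**
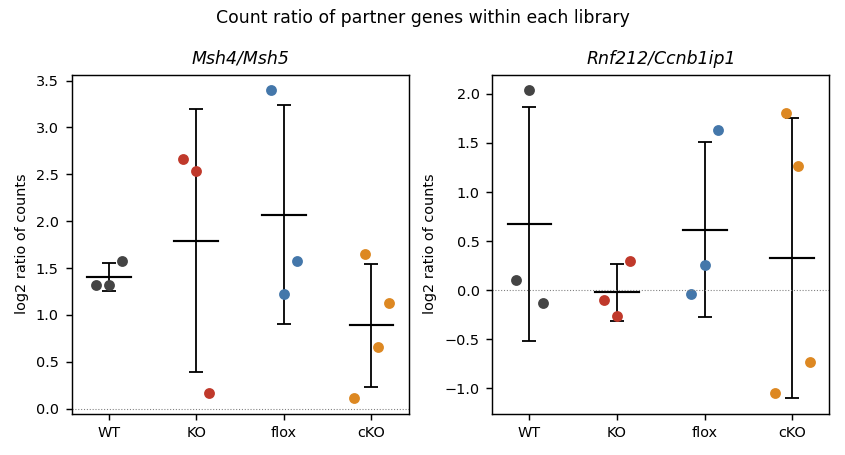
Ratios of counts of partner genes within each embryo (log2 axis) for Msh4 to Msh5 and Rnf212 to Ccnb1ip1. Points are embryos and bars the group mean ± SD; the knockout and control points overlap for each pair.

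Comparing all 7 libraries of the conditional cross with all 6 of the constitutive cross gave narrower intervals. In edgeR 0 of 8 crossover genes were called, beside 1 of all genes tested (0.00764%; 35 in DESeq2, none of the 8 among them), and 0 of 8 had an unadjusted p under 0.05, beside 731 of all genes (5.59%). The log2 difference, conditional minus constitutive, lay between −0.31 for Mlh3 (SE 0.26) and 0.63 for Cntd1 (SE 1.63), with a median of 0.18 beside 0.03 over all genes tested. For Mlh3, Rnf212, Tex11, Ccnb1ip1 and Msh4, 5 of 8 genes, the 95% interval stayed within a 2-fold change in either direction. That of Hfm1, 0.42 (SE 0.31), reached from −0.22 to 1.06.

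The other genes of crossover formation were taken from 3 lists. None was called in KO or cKO embryos by edgeR among 8 measured class I genes, 4 other MutS and MutL genes and 11 genes that process joint molecules. Mcmdc2 and Msh3 are given because of their unadjusted p, after values were seen. Of the class I list, Mcmdc2, an MCM-family protein required for repair on the homologue, had an unadjusted p of 0.0377 in cKO embryos (log2 fold change −2.21, SE 1.00, adjusted p = 1 in edgeR). It was at 9.72, 21.8 and 36.4 CPM in flox and at 0, 5.86, 1.84 and 11.7 CPM in cKO embryos, with an overlap at cKO replicate 4. The transcript Snhg6 on the opposite strand covers 12.7% of the last 1000 bases of Mcmdc2, and without the strand setting its reads cannot be told apart. In the constitutive cross it was at 31.9, 26.3 and 30.2 CPM in WT and 25.9, 13.6 and 15.4 CPM in KO embryos, which did not overlap (exact permutation p = 0.1, the smallest that 3 against 3 allows), with a log2 fold change of −0.68 (SE 1.06). The median log2 fold change of the list was −0.14 in KO and 0.18 in cKO embryos.

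Rmi1, singled out after its values were seen, encodes a partner of BLM and TOP3A in the complex that dissolves joint molecules without a crossover. It was at 95.1, 20.1 and 44.9 CPM in WT and at 5.32, 10.7 and 7.04 CPM in KO embryos, without overlap. A gene on the opposite strand, Hnrnpk, covers 12.3% of its interval, none of it in the last 1000 bases. In the conditional cross the flox embryos were at 51.1, 33.3 and 53.8 CPM and the cKO embryos at 33.9, 22.3, 36.7 and 39.7 CPM, which overlapped. The log2 fold change in KO embryos was −2.79 (SE 0.68, unadjusted p = 0.000377 in edgeR). The adjusted p was 0.847 in edgeR and 0.00878 in DESeq2, each on its own set of genes, so the call depends on the fit. Under the other normalizations, filters and models the adjusted p was 0.259 to 1. The exact permutation test gave p = 0.1, the smallest it allows. The difference between the KO and cKO effects was −2.32 (SE 0.88, unadjusted p = 0.0146, adjusted p = 1 in edgeR), and between the crosses Rmi1 differed by 0.95 (SE 0.44, unadjusted p = 0.0405, adjusted p = 0.868 in edgeR). The list of joint molecule genes had a median log2 fold change of −0.56 in KO and −0.01 in cKO embryos, beside −0.03 and −0.01 over all genes tested. In KO embryos 7 of 11 were below 0, beside 6792 of 13086 genes tested, and 1 of 11 (Rmi1) had an unadjusted p under 0.05, a share near the 5.82% of all genes.

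Among the MutS and MutL genes outside the crossover set, which mainly repair mismatches, the median log2 fold change was 0.21 in KO and 0.42 in cKO embryos. Msh3, a mismatch repair gene for insertion and deletion loops, was at 99.8 ± 40.4 CPM (SD, n = 7) in the conditional and 53.9 ± 15.9 CPM (SD, n = 6) in the constitutive cross, a log2 difference of 0.85 (SE 0.31, unadjusted p = 0.0116, adjusted p = 0.787 in edgeR) with overlapping libraries. Msh6 was at 46.4 to 192 CPM in WT, 68.6 to 130 in KO, 60.1 to 102 in flox and 69.4 to 216 in cKO embryos. Pms2, a mismatch repair gene, had 0 to 53 counts per library. Its last 1000 bases lie wholly within other genes, so its reads may be shared with them and few counts do not show a low level.

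The nuclease and kinase genes of the class I pathway were expressed in all groups. Exo1, an exonuclease that also works in crossover formation, was at 63.7 ± 39.2 CPM in WT, 65.5 ± 21.7 in KO, 67.0 ± 10.2 in flox and 85.2 ± 25.5 in cKO embryos (SD, n = 3, 3, 3 and 4). Cdk2, the kinase found at crossover sites, was at 13.7 to 27.7 CPM in WT, 15.6 to 22.9 in KO, 9.70 to 33.4 in flox and 3.12 to 24.6 in cKO embryos. Of the genes on other routes, Blm, the helicase that takes joint molecules apart, was at 94.9 to 98.7 CPM in WT, 23.6 to 106 in KO, 33.8 to 80.5 in flox and 49.2 to 70.9 in cKO embryos. Mus81, a nuclease of the class II crossover route, had 0 to 94 counts per library. The knockout and control libraries overlapped for Exo1, Cdk2, Blm and Mus81.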

How the data were processed

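The authors trimmed the reads, aligned them to mm10 with STAR 2.6.0 and counted reads per gene with featureCounts 1.6.3, and the deposited table holds these counts without normalization, 1 column per embryo. The annotation and the strand setting of the counting are not given in the sources used here. The listed length of all 55335 genes was the whole gene interval, introns included. The authors' tables of KO against WT and cKO against flox (edgeR 3.28.1 and limma 3.42.2) hold fold changes, statistics and p-values and were not used. Symbols and intervals came from GENCODE M21 (54587 of 55335 genes matched), and promoter windows from RefSeq GRCm38.p6. Replicates are embryos, grouped by their deposited labels.

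Counts were tested with edgeR 4.0.16 in R 4.3.3 (filterByExpr, minimum count 10; 13086 genes kept; TMM; quasi-likelihood F test on all 13 libraries with 4 group means). P-values were adjusted by Benjamini-Hochberg over all genes tested and called at 0.05. The common biological coefficient of variation was 0.841. Levels are CPM; for log2 CPM the prior count was 2. Exact permutation tests were two-sided; 3 against 3 libraries allow no p under 0.1 and 4 against 3 none under 0.0286. DESeq2 1.42.0, limma 3.58.1 (voom), other normalizations and filters, a replicate block and each library left out were alternatives. The scripts were tested on simulated data. No molecular identifiers are described, so counting error covers reads, not molecules. The members, lists and the comparison of the crosses were chosen with earlier results of these data known, and the partner ratios after values were seen. The named genes were all 8 crossover genes, Nr3c1, Exo1, Cdk2, Msh6, Pms2, Blm and Mus81 for their roles, any list gene with an adjusted p of 0.05 or less, and the 3 genes closest in pattern. Rmi1, Mcmdc2 and Msh3 were added after values were seen. Some planned results on 2 list genes are not reported here, and the counts, medians and ratio tests leave them out. Spo16 and Redic1 of the class I list were not matched by symbol.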

Additional observations from a re-analysis of the deposited data

How the results depend on the processing

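For the 8 crossover genes, 516 values were computed under other settings, none was called and the lowest adjusted p was 0.728. The sign was kept in 483 and turned in 33, of which 24 had 1 library left out. DESeq2 was fitted to every gene with at least 1 count, so both the test and the filter changed. It called 12 of 15148 genes in KO against WT and 5 of 21551 in cKO against flox. For their difference it called 10 of 12818, and between the crosses 35 of 20295. In the main edgeR fit the counts were 0, 0, 0 and 1 of 13086. With every gene of at least 1 count tested in edgeR, they were 15, 11, 8 and 35 of 22038. With at least 10 counts in every library, 0 of 6561 were called between the crosses. With 1 library left out the count was 0 to 2 in KO against WT (2 without WT replicate 3) and 1 to 11 between the crosses (11 without WT replicate 3, 4 without KO replicate 3). The cause was not tested.

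The log2 fold change of Msh5 in KO embryos turned to −0.02 with upper-quartile normalization or at least 10 counts in every library, −0.12 with voom and −0.24 with voom and quality weights, and in cKO embryos to −0.11 with quality weights. Cntd1 in cKO embryos turned to −0.39 with voom and −0.71 with quality weights. With 1 library left out, the values in KO embryos ran from −0.85 to 0.08 for Hfm1, −0.34 to 0.61 for Msh4, −0.76 to 0.41 for Msh5, −0.08 to 0.74 for Tex11, −0.23 to 0.63 for Ccnb1ip1, −5.98 to 0.61 for Cntd1, 0.34 to 0.66 for Mlh3 and −0.49 to −0.19 for Rnf212. In cKO embryos they ran from −0.85 (without flox replicate 1) to −0.17 (without flox replicate 2) for Hfm1, −1.41 (without cKO replicate 2) to −0.73 for Msh4, 0.1 (without flox replicate 2) to 0.68 (without flox replicate 3) for Mlh3, −1 (without cKO replicate 2) to −0.12 (without flox replicate 3) for Rnf212 and −0.71 (without cKO replicate 2) to −0.13 (without cKO replicate 1) for Tex11, none called. They ran from −0.27 to 0.35 for Msh5, −0.43 to 0.12 for Ccnb1ip1 and −0.74 to 2.49 for Cntd1 in cKO embryos, and between the crosses from −0.07 to 0.41 for Msh4, −0.33 to 0.11 for Tex11, −0.13 to 0.30 for Ccnb1ip1 and −0.36 to 3.44 for Cntd1. The log2 ratio differences ran from −0.05 to 1.19 for Msh4 to Msh5 in KO and −0.78 to 0.22 for Rnf212 to Ccnb1ip1 in cKO embryos. Rmi1 in KO embryos ran from −3.18 to −2.07.

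Deviations of embryos that share a replicate number had correlations of −0.023 to −0.01 in KO against WT. In cKO against flox these correlations were 0.001 to 0.064. For embryos with different numbers they were 0.001 to 0.016 in KO against WT and −0.045 to 0.017 in cKO against flox. All were small. The litter of each embryo is not given in the sources used here, so these values do not show whether the number pairs embryos. With the replicate block, 0 crossover genes were called in each comparison, and the log2 fold change of Msh5 in KO embryos was −0.03 and that of Ccnb1ip1 between the crosses −0.09. A fit of only the groups compared was not run for the difference or for the crosses. Depth limits Cntd1 most, and genes under the stricter filter were not tested there.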

Other observations

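The genes whose pattern over the 13 libraries was closest to the summed level of the 8 crossover genes, by mean absolute difference of centred log2 CPM, were Ehbp1 (0.106), Rnf17 (0.141) and Zbtb20 (0.148), beside a median of 0.796 over all genes tested. These 3 were picked as the closest, so their place below the median was set by the choice. The summed level ran from 604 to 988 CPM over the libraries, so genes that are steady between libraries lie close to it. The closeness is a likeness of values over libraries that share their depth and cell content, and no shared control was tested.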
